A study of Mus musculus with 4 samples.

Results

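The genes that copy the genome in S phase were followed in reprogramming mouse keratinocytes grown with or without a Notch pathway inhibitor. The 39 genes were chosen by name for their known roles in DNA replication and entry into S phase. A gene counted as measured if a probe on the array carried its symbol and the probe was detected, at a detection p under 0.01, on at least 1 array. Of the 39 genes, 36 had a named probe and 33 were measured by this rule, out of 10359 genes measured among 16593 genes with a named probe. Gins1, Gins2 and Rfc3 had no named probe, and Mcm7, Pola1 and Slbp had a probe that was detected on none of the arrays. Of the 33 measured genes, 30 were detected on all 4 arrays.

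RNA was profiled on 4 Illumina bead arrays, 1 per group, from primary keratinocytes of neonatal mice. The mice of all 4 samples were of genetic background 129 and had a Pou5f1::GFP transgene, by which the pluripotency gene Pou5f1 can be followed as fluorescence. Per the series' design text, all had also been transduced with reprogramming transcription factors, which it does not name. The groups were no DAPT on day 4, 2.5 uM DAPT on day 4, no DAPT on day 7 and 2.5 uM DAPT on day 7. DAPT blocks gamma-secretase, the protease that frees the active intracellular part of Notch receptors. Sample titles were used to form the groups, since the treatment field says DAPT for each of the 4 samples, also for those titled no DAPT. No untransduced keratinocytes were analysed here, and the labels do not say whether the 4 samples were separate cultures.

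Before a cell can replicate its DNA, the origin recognition complex with Cdc6 and Cdt1 loads the Mcm2-7 helicase onto origins in G1. Cyclin E with its kinase and the E2F transcription factors then drive entry into S phase, when the helicase is activated by Cdc45 and the GINS complex, polymerases copy both strands on the PCNA clamp, and nucleotides and histones are supplied to the fork. Many of these genes are E2F targets whose RNA is abundant in dividing basal keratinocytes and scarce in cells that have left the cycle.

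E2F factors bind a short motif, for which the promoter windows of these genes were searched. RefSeq promoters of build GRCm38.p6, from 250 bases before each gene's start to 50 bases after it, were searched on both strands for TTTCCCGC, TTTCGCGC, TTTGCCGC and TTTGGCGC, with overlaps allowed. A match was found for 10 of the 32 listed genes in the promoter table (31.2%), namely Cdc6, Cdt1, Lig1, Mcm3, Mcm5, Mcm6, Mcm7, Pola1, Pold1 and Uhrf1. Over all 27025 genes of the table, 2.60% had a match, and over the measured genes 4.29%. Of the 29 measured S phase genes in the table, 8 had a match (27.6%). A match is only a run of letters in the window and not a shown site of binding. The 250 bases before the start of 3 genes are printed 5′ to 3′ on the gene's own strand, with the E2F matches in capitals. Mcm5 is shown because it was the one S phase gene past the test between days, Mcm6 because its window held the most matches, and Tk1, which has none, because it differed most between the days without DAPT.
Mcm5, chr8:75109259-75109508, plus strand: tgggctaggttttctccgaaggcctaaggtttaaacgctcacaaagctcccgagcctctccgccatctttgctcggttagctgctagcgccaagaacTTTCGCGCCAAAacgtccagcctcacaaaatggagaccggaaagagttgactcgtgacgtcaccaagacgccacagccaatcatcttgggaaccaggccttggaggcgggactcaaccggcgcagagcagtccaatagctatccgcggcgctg
Mcm6, chr1:128359706-128359955, minus strand: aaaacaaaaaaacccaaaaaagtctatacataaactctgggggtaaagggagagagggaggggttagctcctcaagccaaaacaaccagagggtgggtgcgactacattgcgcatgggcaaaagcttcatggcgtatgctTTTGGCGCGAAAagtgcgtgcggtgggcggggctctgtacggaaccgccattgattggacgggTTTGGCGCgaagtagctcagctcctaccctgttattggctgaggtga
Tk1, chr11:117826015-117826264, minus strand: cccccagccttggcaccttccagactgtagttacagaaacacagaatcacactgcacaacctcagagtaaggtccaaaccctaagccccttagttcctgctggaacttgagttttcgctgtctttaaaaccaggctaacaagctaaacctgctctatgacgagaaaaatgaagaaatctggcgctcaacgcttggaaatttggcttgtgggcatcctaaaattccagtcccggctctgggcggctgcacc

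In Mcm5 a pair of overlapping matches on opposite strands began 153 and 149 bases before the start. In Mcm6 such a pair began 110 and 106 bases before the start, and a further match began 47 bases before it. The CCAAT box, a common promoter element of cell cycle genes, was found in 18 of the 32 genes (56.2%) against 41.1% of all genes in the table. TTTGAA, the core of the element that many G2 and mitosis genes carry, was found in 3 of the 32 (9.38%) against 20.2% of all genes. TATAAA was found in 2 of the 32 (6.25%) against 15.7% of all genes.

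Values below are normalized log2 intensities, and a difference of 1 on this scale is a 2-fold difference. Mean intensity before normalization was 472 and 365 without and with DAPT on day 4, and 323 and 416 on day 7, and between 12281 and 14145 of 25697 probes were detected per array. No group was repeated, so a difference between single arrays has no error of its own and gets no p. As a guide to measurement error, other detected probes of the same gene differed with an SD of 0.50, 0.34, 0.59 and 0.27 in the comparison of DAPT on day 4, of DAPT on day 7, of the days without DAPT and of the days with DAPT. The one test was limma's model with day and DAPT as additive terms, fitted to all 10359 measured genes, and its p-values were adjusted by Benjamini-Hochberg. Its 1 residual degree of freedom is the difference between the DAPT effects of the 2 days, its error has the same SD of 0.38 for every gene, and its p-values measure the spread among these 4 samples, which may be technical. Each comparison of DAPT shares 1 array with each comparison of days, so their values are given side by side only. In RNA from a whole culture, fewer cells in S phase and less RNA per cell cannot be told apart.

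S phase genes stood lower on day 7 than on day 4, both without and with DAPT, and most were higher with DAPT than without it on each day, although on day 4 their median was only 0.0155 when the arrays were scaled by their medians. Without DAPT, 9 of 33 were at least 2-fold lower on day 7 and 0 at least 2-fold higher, where 6.51% of 9879 genes were lower and 7.39% higher by that much. The 9 were Mcm2, Mcm5, Mcm6, Prim1, Rrm2, Tyms, Tk1, Uhrf1 and Ccne2. The median difference of the 33 was -0.62, beside 0.09 for all genes, and 29 of the 33 lay below 0, beside 43.9% of all genes. With DAPT, 2 of 33 were at least 2-fold lower on day 7, Mcm5 and Rrm2, and 0 higher, beside 1.96% and 2.97% of all genes. The median was -0.57, beside -0.03 for all genes, and again 29 of 33 lay below 0, beside 52.8% of all genes. At 1.5-fold, 17 of 33 were lower and 0 higher without DAPT, beside 15.4% and 21.9% of all genes. With DAPT 16 of 33 were lower and 0 higher by that much, beside 9.24% and 9.79%. In both comparisons 12 were lower by that much, beside 2.58% of all genes.

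In the additive test of day, 1 of 33 passed the adjusted threshold of 0.05, and it was lower on day 7. This was Mcm5, and among all genes 0.676% passed as lower and 1.16% as higher. At an unadjusted p under 0.05, 11 of the 33 were lower and 0 higher, beside 3.92% and 5.49% of all genes. The median day effect was -0.59, beside 0.02 for all genes. In the test of DAPT, 0 of 33 passed in either direction, where 0.106% of all genes passed as higher and 0.00965% as lower. At an unadjusted p under 0.05, Tk1 and Uhrf1 were higher with DAPT and 0 were lower, beside 1.47% and 0.492% of all genes. The median DAPT effect was 0.32, beside 0.01 for all genes.

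**Figure D1:**
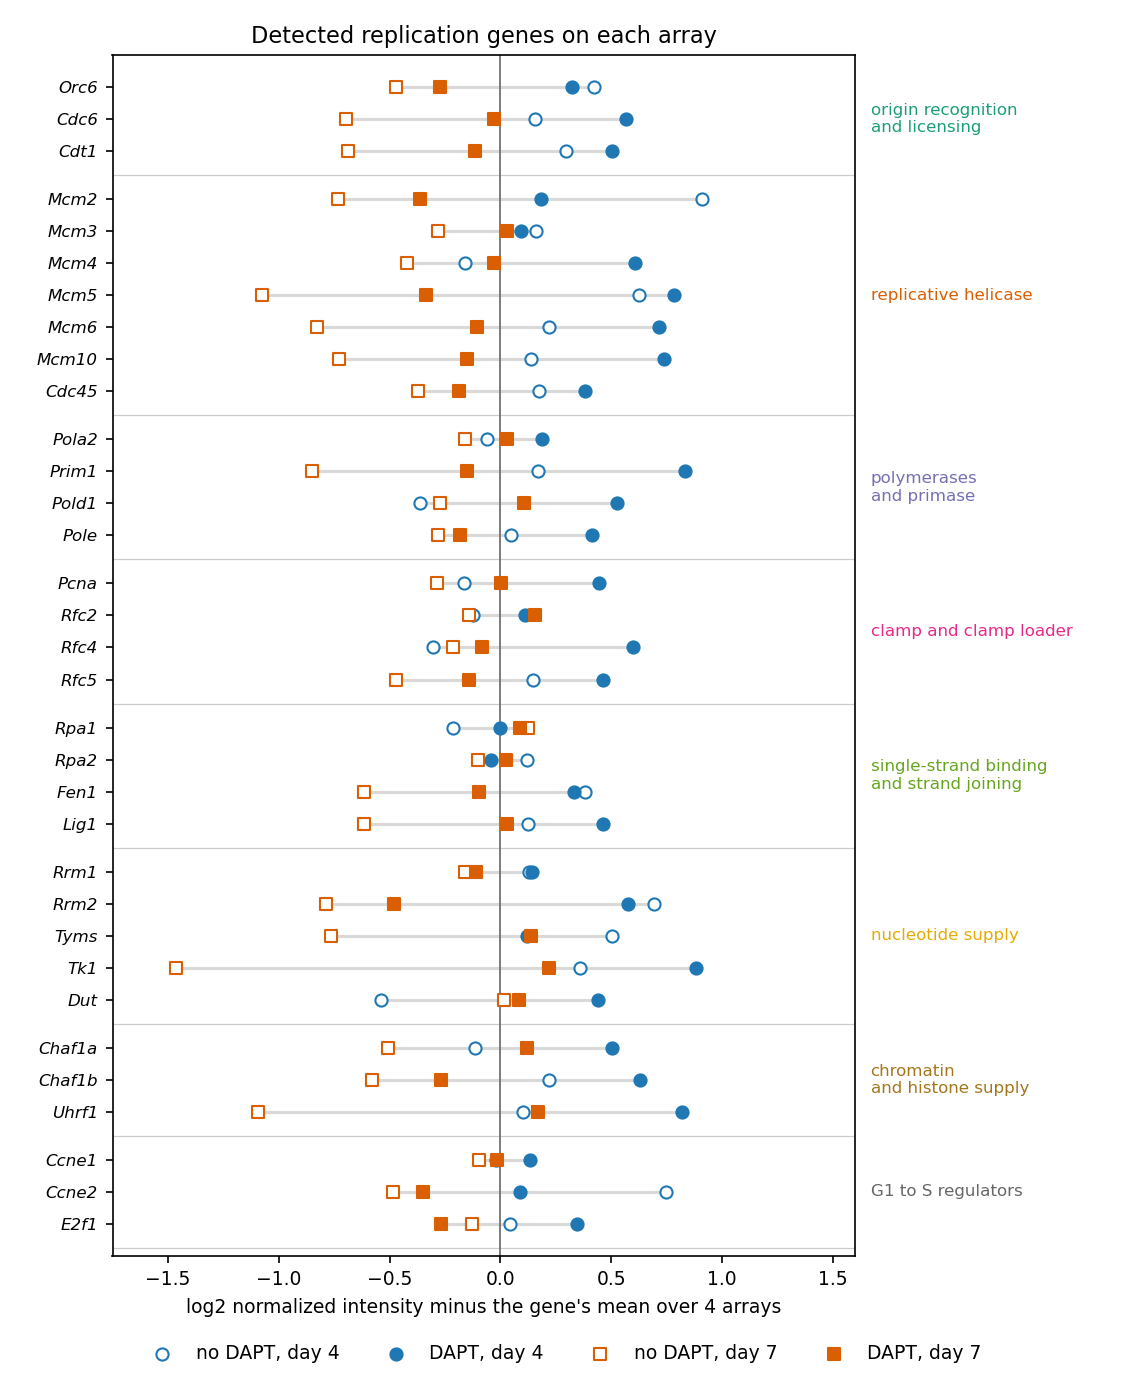
Normalized log2 intensity of each of the 33 measured S phase genes on the 4 arrays, given as the difference from the gene's own mean over the arrays and ordered by role. Most genes are lowest on the array without DAPT on day 7 (28 of 33, beside 22.7% of all measured genes) and highest on the array with DAPT on day 4 (23 of 33, beside 24.9%).

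Under quantile normalization the order of the arrays was shared by most of the genes. The array with DAPT on day 4 was the highest for 23 of 33, beside 24.9% of all measured genes, as the plot of each gene by array shows. The array without DAPT on day 7 was the lowest for 28 of 33, beside 22.7%. Both held for 19 of 33 (57.6%), beside 5.81% of all measured genes. When the arrays were scaled by their medians in place of quantiles, the array with DAPT on day 4 was the highest for 15 and the array without DAPT on day 4 for 16, while the array without DAPT on day 7 was the lowest for 30 of 33. Of all measured genes, 19.4%, 38.2% and 35.3% were so, in the same order. DAPT on day 4 highest together with no DAPT on day 7 lowest then held for 14 of 33 (42.4%), beside 6.12%. With the authors' normalized values, DAPT on day 4 was the highest for 22 and no DAPT on day 7 the lowest for 27. The shares of all measured genes were 24.8% and 20.7%. Both held for 18 of 33 (54.5%), beside 5.51%.

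**Figure D2:**
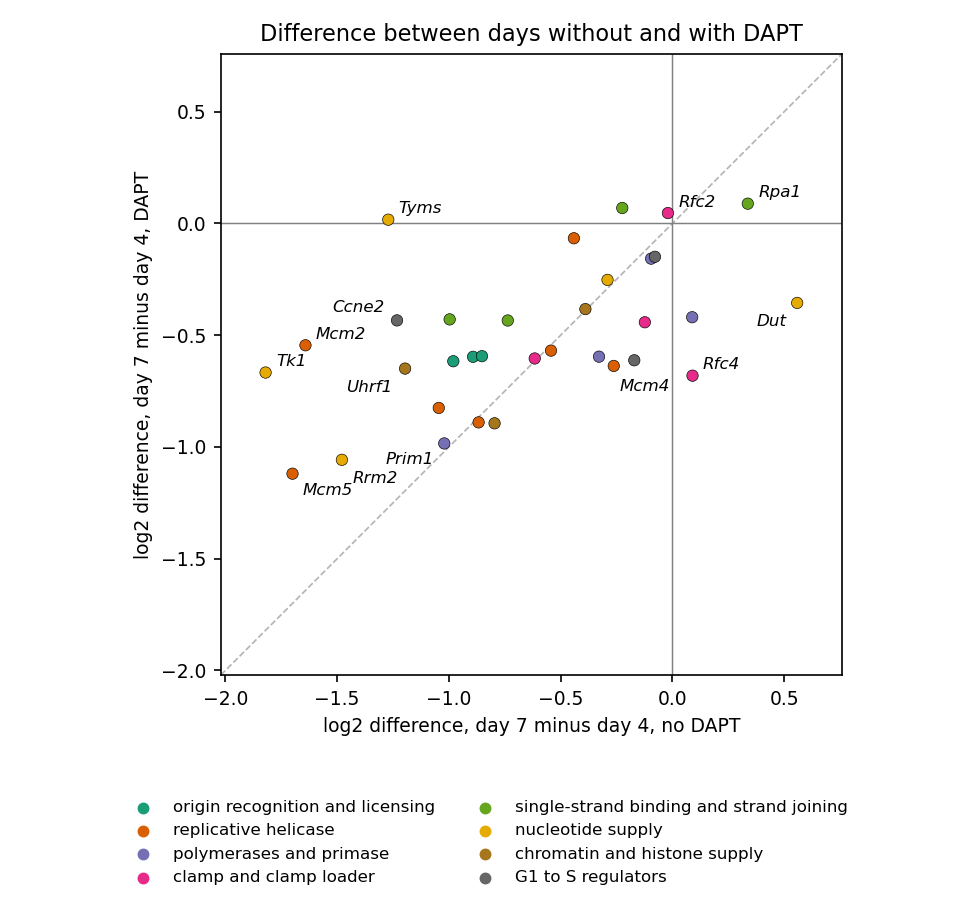
Log2 difference between day 7 and day 4 without DAPT (x axis) and with DAPT (y axis), 1 point per S phase gene coloured by role, with a dashed line where both are equal. Of the 33 genes, 26 lie below 0 on both axes, and Mcm5 and Rrm2 are the 2 that are at least 2-fold lower on both.

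The comparisons of days without and with DAPT share no array. Of the 33 genes, 26 were below 0 in both, where 24.0% of all genes were, and 2 were at least 2-fold lower in both, where 0.640% were. In 20 of 33 the difference between days was more negative without DAPT than with it, beside 41.3% of all genes.

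The licensing genes mark and prepare origins in G1, and all 3 were lower on day 7 without and with DAPT, beside 24.0% of all genes. Cdt1, which brings the helicase to origins, stood at 7.33 and 7.54 on day 4 without and with DAPT, and at 6.35 and 6.92 on day 7. Cdc6, the ATPase that works with it, stood at 6.23 and 6.64 on day 4 and at 5.38 and 6.05 on day 7. For both, each day 7 array was below both day 4 arrays, and the array with DAPT was the higher on each day. The differences between days were -0.98 without and -0.62 with DAPT for Cdt1, and -0.85 and -0.59 for Cdc6. Orc6, a subunit of the origin recognition complex, differed by -0.89 and -0.60 between days, and by -0.10 and 0.20 with DAPT on day 4 and day 7. None of the 3 passed the adjusted test.

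The replicative helicase held the one gene past the test. Mcm5, a subunit of the Mcm2-7 ring, stood at 9.21 without and 9.37 with DAPT on day 4, and at 7.51 without and 8.25 with DAPT on day 7. Its day 7 arrays were both below its day 4 arrays, the one without DAPT the lowest. It was 3.25-fold lower on day 7 without DAPT and 2.17-fold lower with DAPT. In limma's additive model it fell by 1.41 (SE 0.38, adjusted p = 0.017), a call that held in 3 of 12 alternative settings and was lost in 9, where the adjusted p ranged from 0.054 to 0.619. With the DAPT term left out, the adjusted p was 0.193, 0.093 and 0.595 without the array of no DAPT on day 4, of DAPT on day 4 and of no DAPT on day 7, and 0.022 without that of DAPT on day 7. Its DAPT differences were 0.16 on day 4 and 0.74 on day 7.

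Mcm6, a further ring subunit, stood at 9.82 and 10.32 without and with DAPT on day 4, and at 8.77 and 9.49 on day 7. On this probe its order of arrays was that of Mcm5, with DAPT on day 4 the highest and no DAPT on day 7 the lowest. Its differences between days were -1.05 without and -0.83 with DAPT, with an adjusted p of 0.286 in limma's additive model. Of its 3 other probes, 2 were detected on all arrays and gave -1.56 and -1.02 between days without DAPT, and -0.56 and -1.33 with DAPT. The same probes gave -0.22 and 0.76 with DAPT on day 4, and 0.78 and 0.44 on day 7. The former was thus highest without DAPT on day 4. Mcm2, also of the ring, stood at 8.03 and 7.31 on day 4 and at 6.39 and 6.76 on day 7, without and with DAPT. Its array without DAPT was the higher on day 4 and the lower on day 7. The differences between days were -1.64 without and -0.55 with DAPT (adjusted p = 0.135 in limma's additive model).

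Mcm4, the ring subunit with the smallest difference of the helicase genes between days without DAPT, stood at 10.13 and 10.89 on day 4, and at 9.86 and 10.26 on day 7, without and with DAPT. Its value without DAPT on day 4 lay below the value with DAPT on day 7, so its days overlapped. Its differences between days were -0.26 without and -0.64 with DAPT, and with DAPT it differed by 0.77 on day 4. Mcm3, also of the ring, was not detected without DAPT on day 7. It was at least 1.36-fold lower on day 7 without DAPT and on day 7 at least 1.24-fold higher with DAPT, and differed by -0.07 between days with DAPT and by -0.07 with DAPT on day 4. Mcm10, which helps to start the helicase, differed by -0.87 and -0.89 between days without and with DAPT, and by 0.60 and 0.58 with DAPT on day 4 and day 7. Cdc45, the partner that activates the ring, differed by -0.54 and -0.57 between days. All 7 measured helicase genes lay below 0 in both comparisons of days, beside 24.0% of all genes, and all 7 above 0 with DAPT on day 7, beside 44.1%. The probe of Mcm7 was not detected, at 4.31 to 4.67, so its level in these cells was not determined.

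The 4 measured polymerase and primase genes all lay above 0 with DAPT on both days, beside 18.2% of all genes. Prim1, the catalytic subunit of the primase that lays down RNA primers, stood at 5.98 and 6.65 on day 4 without and with DAPT, and at 5.66 with DAPT on day 7. Without DAPT on day 7 its probe was not detected. It was thus at least 2.03-fold lower on day 7 without DAPT, and at least 1.63-fold higher with DAPT than without it on day 7, while its difference between days with DAPT was -0.98. Pold1, the catalytic subunit of polymerase delta, stood at 6.93 and 7.82 on day 4, and at 7.02 and 7.40 on day 7, without and with DAPT. Its arrays with DAPT were both above those without, and the days overlapped. Its differences were 0.89 with DAPT on day 4, 0.38 with DAPT on day 7, and 0.09 and -0.42 between days. Pole, the catalytic subunit of polymerase epsilon, differed by -0.33 and -0.60 between days, and Pola2, a regulatory subunit of polymerase alpha, by -0.10 and -0.16. The probe of Pola1 was not detected on any array.

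The clamp and clamp loader genes differed least between days without DAPT. Rfc2, a loader subunit, stood at 9.69 and 9.92 on day 4 and at 9.67 and 9.96 on day 7, without and with DAPT. Its values paired by DAPT and not by day. The differences were 0.23 and 0.30 with DAPT, and -0.02 and 0.05 between days. Rfc5, another loader subunit, stood at 6.70 and 7.02 on day 4 and at 6.08 and 6.41 on day 7, with both day 7 arrays below both day 4 arrays. It differed by -0.62 and -0.60 between days. Pcna, the sliding clamp itself, differed by 0.61 and 0.29 with DAPT and by -0.12 and -0.44 between days. Rfc4, also of the loader, differed by 0.90 and 0.13 with DAPT on day 4 and day 7, and by 0.09 and -0.68 between days without and with DAPT. The other detected probe of Rfc4 gave 0.56 and -0.39 with DAPT, and 0.25 and -0.69 between days. The 2 probes of Rfc4 thus disagreed in sign with DAPT on day 7. The mouse RefSeq table also names pseudogenes of Pcna and Tyms, so the values of these 2 genes are uncertain to the extent that their probes also read the copies.

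Among the genes that bind single strands and join fragments, Fen1, the nuclease that trims flaps from Okazaki fragments, stood at 9.01 and 8.96 on day 4, and at 8.01 and 8.53 on day 7. Both day 7 arrays were below both day 4 arrays. Its differences between days were -0.997, just short of 2-fold, and -0.43. Rpa2, a subunit of the complex that coats single strands, stood at 6.79 and 6.62 on day 4 and at 6.56 and 6.69 on day 7, with the days overlapping. It differed by -0.22 and 0.07 between days. Its other detected probe gave -1.15 and -0.50 between days without and with DAPT, so the 2 probes of Rpa2 disagreed. Lig1, the ligase that seals the fragments, differed by -0.74 and -0.43 between days and by 0.34 and 0.64 with DAPT. Its other detected probes, detected on 3, 1 and 1 arrays, gave -0.01, -0.81 and -0.25 between days without DAPT, and -0.04, -0.37 and 0.08 with DAPT. They gave 0.23, -0.31 and -0.27 with DAPT on day 4, where the probes of Lig1 disagreed in sign, and 0.20, 0.13 and 0.06 on day 7. Rpa1, the large subunit of the same coating complex, was the one of these 4 above 0 between days in both comparisons, at 0.34 and 0.09.

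**Figure D3:**
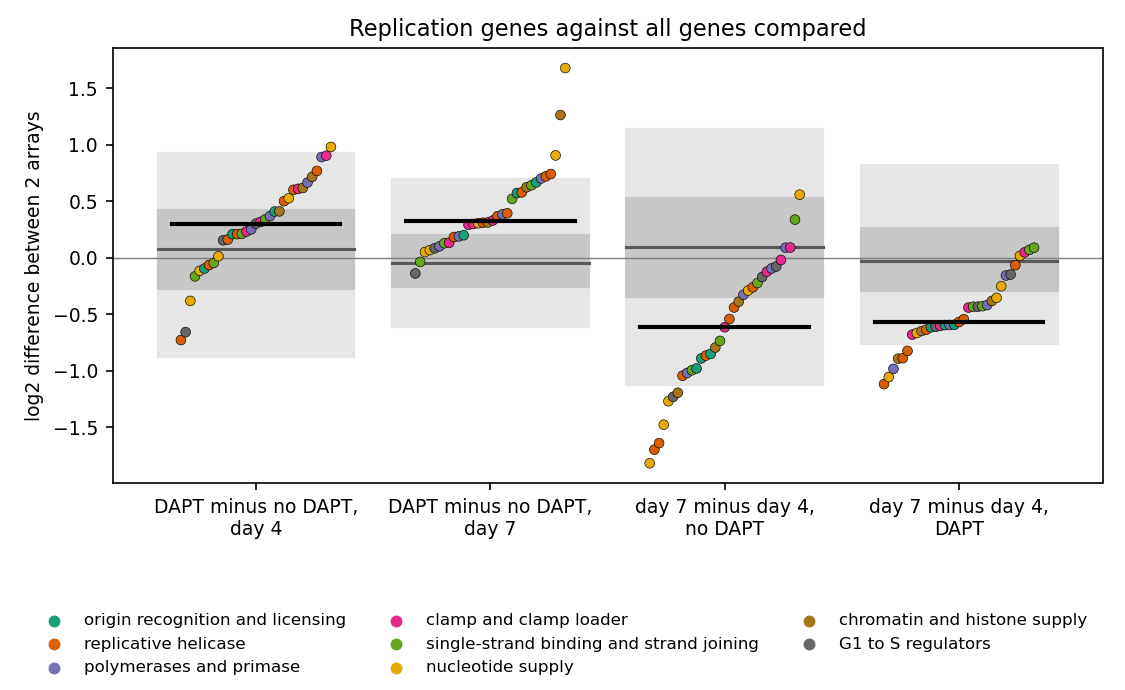
Log2 difference between 2 arrays (y axis) in the 4 comparisons (x axis), 1 point per S phase gene coloured by role, with a black line at their median and, for all genes compared, a grey line at the median and grey bands over the middle 50% and the middle 90%. The black median lies above that of all genes in both comparisons of DAPT (0.30 and 0.32 against 0.08 and -0.05) and below it in both comparisons of days (-0.62 and -0.57 against 0.09 and -0.03).

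The nucleotide supply genes held the largest differences, as the plot of differences by role shows. Tk1, the thymidine kinase of the salvage pathway, stood at 7.54 without and 8.07 with DAPT on day 4, and at 5.72 without and 7.40 with DAPT on day 7. The array without DAPT on day 7 stood apart below the other 3. Tk1 was 3.53-fold lower on day 7 without DAPT and 1.59-fold lower with DAPT. It was 1.44-fold higher with DAPT on day 4 and 3.20-fold higher on day 7. In limma's additive model its day effect was -1.24 (adjusted p = 0.058) and its DAPT effect 1.10 (unadjusted p = 0.004, adjusted p = 0.864). With the DAPT term left out, its day effect was -1.51, -0.98 and -0.40 (adjusted p = 0.433, 0.370 and 1) without the array of no DAPT on day 4, of DAPT on day 4 and of no DAPT on day 7, and -2.08 (adjusted p = 0.004) without that of DAPT on day 7. A second Tk1 probe stood at 5.73 and 5.75 on day 4 and at 5.21 with DAPT on day 7. It was not detected without DAPT on day 7, at 4.90. For DAPT on day 4 and day 7 it gave 0.03 and 0.31, where the chosen probe gave 0.53 and 1.68. From day 4 to day 7 it gave -0.82 without and -0.54 with DAPT, where the chosen probe gave -1.82 and -0.67. The 0.31 and -0.82 rest on the undetected value and are lower bounds in size. The mean over Tk1 probes, including a probe detected on no array, had additive effects of -0.64 for day and 0.40 for DAPT.

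Rrm2, the regulated small subunit of ribonucleotide reductase, stood at 7.43 and 7.31 on day 4 and at 5.95 and 6.25 on day 7, without and with DAPT. Both day 7 arrays were below both day 4 arrays. It was 2.79-fold lower on day 7 without DAPT and 2.08-fold lower with DAPT, and its day effect was -1.27 (adjusted p = 0.051 in limma's additive model). Its other detected probe gave -1.92 and -1.05 between days. With DAPT on day 4 and day 7 that probe gave -0.58 and 0.29, and the chosen one -0.12 and 0.30. Rrm1, the large subunit of the same enzyme, stood at 9.35 and 9.36 on day 4 and at 9.06 and 9.11 on day 7, with differences between days of -0.29 and -0.25. The subunits of this enzyme therefore differed between days by unequal amounts, in the same direction.

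Tyms, the thymidylate synthase, stood at 9.12 and 8.73 on day 4 and at 7.84 and 8.75 on day 7, without and with DAPT. The array without DAPT was the highest of the 4 on day 4 and the lowest on day 7, and the arrays with DAPT hardly differed. Its differences between days were -1.27 without and 0.02 with DAPT. Another probe of Tyms detected on all arrays gave -0.90 and -0.37. Dut, which removes dUTP, differed the other way without DAPT. It stood at 5.42 and 6.40 on day 4 and at 5.98 and 6.04 on day 7. Its array without DAPT on day 4 was the lowest, and its differences were 0.98 with DAPT on day 4 and 0.56 between days without DAPT.

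Of the genes that rebuild chromatin behind the fork, Uhrf1, which guides the maintenance of DNA methylation on new strands, stood at 8.92 without and 9.64 with DAPT on day 4, and at 7.72 without and 8.99 with DAPT on day 7. The array without DAPT on day 7 was again the lowest, and with DAPT the day 7 value stood near that of day 4 without DAPT. It was 2.29-fold lower on day 7 without DAPT and 1.57-fold lower with DAPT, and 1.64-fold and 2.40-fold higher with DAPT on day 4 and day 7. In limma's additive model its DAPT effect was 0.99 (unadjusted p = 0.010), and it did not pass after adjustment. Chaf1a, a subunit of the CAF-1 histone chaperone, stood at 6.60 and 7.22 on day 4 and at 6.21 and 6.83 on day 7, and differed by 0.62 with DAPT on both days. Chaf1b, its partner subunit, differed by -0.80 and -0.89 between days. All 3 were above 0 with DAPT on both days, beside 18.2% of all genes. Slbp, which binds the ends of histone RNAs, was not detected, at 4.15 to 4.21.

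The 3 G1 to S regulators differed among themselves. Ccne1, cyclin E1, stood at 6.85 and 7.00 on day 4 and at 6.77 and 6.85 on day 7, and its 4 differences ran from -0.15 to 0.15. Ccne2, cyclin E2, stood at 5.87 and 5.22 on day 4 and was not detected on either day 7 array. It was at least 2.35-fold lower on day 7 without DAPT and at least 1.35-fold lower with DAPT, and differed by -0.66 with DAPT on day 4. E2f1, the transcription factor that activates many genes of this list, differed by -0.17 and -0.61 between days, and by 0.30 and -0.14 with DAPT on day 4 and day 7.

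**Figure D4:**
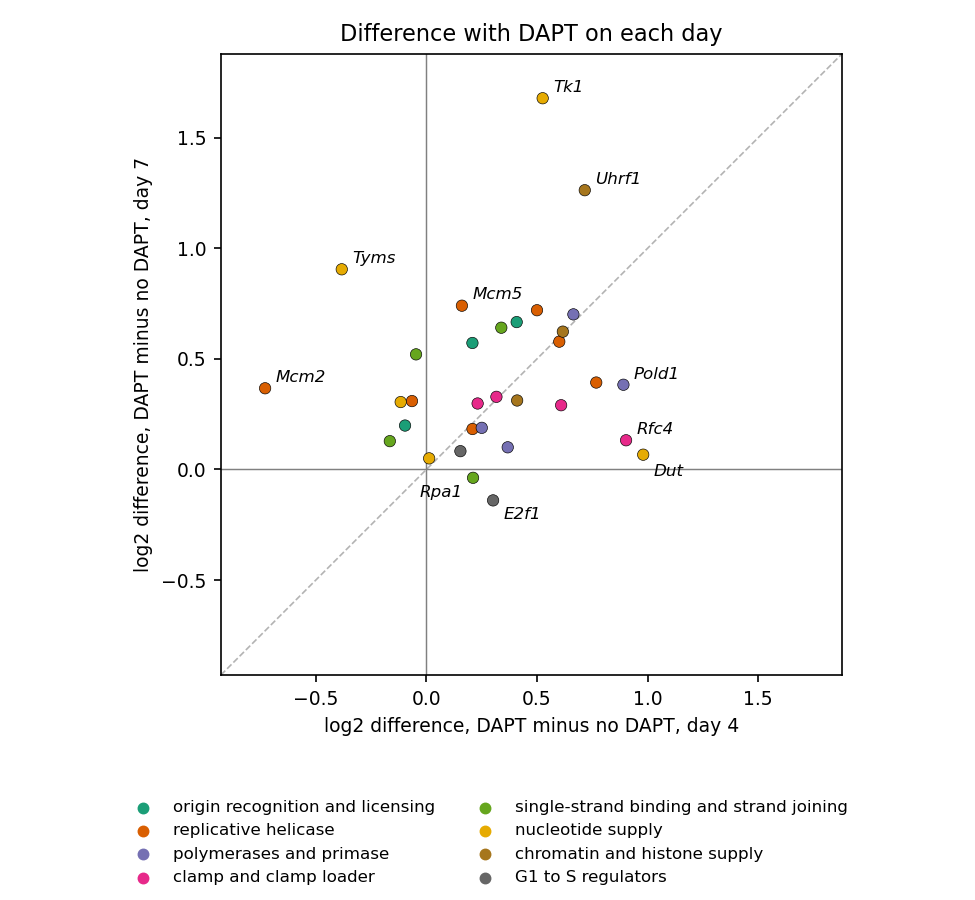
Log2 difference with DAPT on day 4 (x axis) and on day 7 (y axis), 1 point for each of the 32 S phase genes compared on both days, coloured by role, with a dashed line where both are equal. Of the 32 genes, 23 lie above 0 on both axes, and Tk1 and Uhrf1 lie highest on day 7.

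The effect of DAPT was compared on each day. On day 4, 0 of 33 S phase genes were at least 2-fold higher or lower with DAPT, beside 3.73% and 3.55% of all genes. The median difference was 0.30, beside 0.08 for all genes, and 25 of 33 lay above 0, beside 55.8% of all genes. The differences ran from -0.73 for Mcm2 to 0.98 for Dut. On day 7, Tk1 and Uhrf1, 2 of 32, were at least 2-fold higher, and 0 lower, beside 1.62% and 0.464%. The median was 0.32, beside -0.05 for all genes, and 30 of 32 lay above 0, beside 44.1% of all genes. The S phase differences ran from -0.14 for E2f1 to 1.68 for Tk1.

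The comparisons of DAPT on day 4 and on day 7 share no array. Of 32 genes, 23 were above 0 on both days, beside 18.2% of all genes, as the plot of the DAPT differences shows. Another 7 were below 0 on day 4 and above 0 on day 7, and 2, Rpa1 and E2f1, the reverse. The shares of all genes that changed sign in these ways were not counted, so nothing is read from the 7 and the 2. The day 7 difference minus the day 4 difference had a median of 0.04 in the 33 genes and -0.15 in all genes. With median scaling in place of quantiles, the median of all genes moved to -0.10 on day 4 and 0.17 on day 7. Relative to it the S phase genes stood 0.12 higher on day 4 and 0.46 higher on day 7, where quantile normalization gave 0.22 and 0.37.

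The measured genes with an E2F match in the promoter window were set beside those without. The median difference between days without DAPT was -0.92 in the 8 genes with a match and -0.54 in the 21 without, and with DAPT -0.61 and -0.55. The median DAPT difference was 0.37 and 0.25 on day 4, and 0.65 and 0.29 on day 7. The ranges overlapped in all 4 comparisons: between days without DAPT they ran from -1.70 to 0.09 with a match and from -1.82 to 0.56 without. Tk1 was among those without a match, so large differences occurred in both classes. No test was made of this split.

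Other genes of replication and of the G1 to S step were taken from lists of known roles. Between days without DAPT, 5 of 16 other polymerase and fork genes were lower by 2-fold or more and 0 higher, beside 6.51% and 7.39% of all genes. With DAPT on day 7, 3 of 16 were higher by that much, beside 1.62%. With DAPT on day 4, 0 of 17 were higher and 2 lower by 2-fold or more, Top1 and Rnaseh2c, beside 3.73% and 3.55%. Top2a, the topoisomerase that untangles daughter strands, stood at 7.43 and 8.04 on day 4 and at 6.05 and 7.06 on day 7, the same order of arrays as Mcm5. Clspn, an adaptor of the checkpoint kinase at the fork, differed by -1.15 and -0.81 between days and by 0.90 and 1.25 with DAPT. Chtf18, of an alternative clamp loader, differed by -1.38 and -0.80 between days. Top1, the topoisomerase that relieves supercoils, is named because it completes both counts, a choice made after its values were seen. It was at least 5.63-fold lower on day 7 without DAPT, and with DAPT 3.34-fold lower on day 4 and at least 2.43-fold higher on day 7. Rnaseh2c, a subunit of the RNase that removes primers, differed by -1.64 without and -0.17 with DAPT between days, and by -1.09 and 0.37 with DAPT on day 4 and day 7. Of 11 other origin and helicase genes, 0 were at least 2-fold lower and 1 higher without DAPT, beside 6.51% and 7.39% of all genes. The higher was Orc4, at 1.56. Orc3 differed by 0.83, Dbf4, the activator of the Cdc7 kinase, by -0.53, and Orc5 by 0.43.

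Of 12 other nucleotide and chromatin supply genes, 1 was at least 2-fold lower between days without DAPT, the histone chaperone Nasp, at -1.12. This share, 8.33%, was near the 6.51% of all genes. Cbx5, a heterochromatin protein, differed by -0.78 and Gart, an enzyme of purine synthesis, by -0.61. Of 18 Rb, E2F and cyclin regulators, 1 was at least 2-fold lower and 1 higher (5.56% each), near the 6.51% and 7.39% of all genes. Ccna2, cyclin A2, which acts within S phase, was the lower, at -1.19 without and -1.15 with DAPT, and E2f3 the higher, at 1.15 without and -0.05 with DAPT. Rbl1, the p107 relative of Rb, differed by -0.83. Of 10 checkpoint and repair genes, 1 was at least 2-fold lower on day 7 without DAPT, also near the 6.51% of all genes. It was Rad54l, of recombination repair, at least 2.19-fold lower, named after its value was seen. By the rule for named genes, the mismatch repair gene Msh6 differed by 0.62, the uracil glycosylase Ung by -0.49, the helicase Blm by -0.37 and Usp1, a deubiquitinase, by -0.20. In limma's additive test of day, and in that of DAPT, 0 genes of these 5 lists passed the adjusted threshold. At an unadjusted p under 0.05, 9 of the 71 genes tested were lower with day and 0 higher, beside 3.92% and 5.49% of all genes. With DAPT, 5 were higher and 0 lower at that threshold, beside 1.47% and 0.492%.

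Genes of the next phase of the cycle stood lower as well. Of 10 genes of G2 and mitosis, 8 were lower by 2-fold or more between days without DAPT and 3 with DAPT (Cenpa, Ube2c and Bub1b, of which the latter pair is named after its values were seen), with medians of -1.37 and -0.86. Of all genes, 6.51% and 1.96% were lower by that much. With DAPT on day 4 the differences of the 10 ran from -0.40 to 1.06, with Cdk1 and Birc5 below 0, and on day 7 those of the 9 compared ran from 0.69 to 1.26. The mitotic kinase Cdk1 stood at 9.31 and 8.91 on day 4 and at 7.03 and 8.10 on day 7, and fell by 1.55 in limma's additive test of day (adjusted p = 0.006). Cenpa, the centromeric histone, fell by 1.35 (adjusted p = 0.029), and these were the 2 of the 10 past the threshold, where 0.676% of all genes passed as lower. Among 6 inhibitors of the G1 to S step the median difference between days was 0.02 without and 0.46 with DAPT, and with DAPT it was -0.59 on day 4 and, over the 5 compared, -0.31 on day 7. Between days without DAPT 3 of the 6 lay above 0 and 3 below. Cdkn2a, which encodes p16 and p19Arf, stood at 7.66 and 6.43 on day 4 and at 8.35 and 7.61 on day 7, lower with DAPT on each day. Cdkn2d, a further inhibitor of cyclin D kinases, stood at 7.85 and 6.82 on day 4 and at 6.24 and 6.48 on day 7, lower with DAPT on day 4 and higher on day 7. Cdkn1a, the p53 target p21, differed by -0.65 between days without DAPT, and by -1.02 and 0.07 with DAPT on day 4 and day 7. Cdkn1c and Cdkn2b differed by 1.13 and 0.94 between days without DAPT, and by -0.71 and -0.31 with DAPT on day 7. Of 9 common reference genes, 0 differed by 2-fold in any of the 4 comparisons. With DAPT on day 4 their median difference was 0.35, no smaller than the 0.30 of the S phase genes. It was -0.03 with DAPT on day 7, and 0.09 and -0.03 between days without and with DAPT.

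Cell type markers also differed between these arrays. The summed normalized intensity of 11 keratinocyte markers was 31413 without and 36340 with DAPT on day 4, and 18173 and 21050 on day 7, with 10 detected on each array and Krt1 on none. This sum, weighted to the brightest marker Krt14, was lower on day 7 and higher with DAPT on each day. Of the 10 markers compared, 8 lay below 0 between days without DAPT and 10 with DAPT. With DAPT, 9 lay above 0 on day 4 and 8 on day 7. Krt10 and Perp went the other way, by 0.76 and 0.73 between days without DAPT and by -0.37 and -0.65 with DAPT on day 7. Itgb4 did so with DAPT on day 4, at -0.37. Krt5, Krt14 and Trp63, which define basal keratinocytes, were detected on all 4 arrays. Krt5, a keratin of the dividing basal layer, stood at 8.11 and 9.11 on day 4 and at 5.19 and 6.89 on day 7. The sum of 11 fibroblast and mesenchymal markers was 25886 and 23774 on day 4, and 44243 and 44741 on day 7, with 10 or 11 detected, so the day 7 arrays were the higher. Smooth muscle markers summed to between 32446 and 39704 with 4 of 5 detected, a sum weighted to the brightest, Acta2. Of the 4 compared between days, 1 was at least 2-fold higher, Myh11, at 1.61 without and 1.58 with DAPT, beside 7.39% and 2.97% of all genes. Melanocyte markers summed to 481 and 475 on day 4 without and with DAPT, and to 784 and 170 on day 7. With DAPT on day 7, 4 of the 5 compared were at least 2-fold lower, beside 0.464% of all genes. Immune markers summed to between 157 and 359, with Ptprc not detected. Endothelial markers summed to between 466 and 669, with Cdh5 not detected. Of 7 pluripotency markers, between 0 and 2 were detected per array, and Nanog on none. In limma's additive test of day, 2 of 10 keratinocyte markers, Krt5 and Col17a1, passed the adjusted threshold as lower, beside 0.676% of all genes. Passing as higher were 1 of 11 fibroblast and mesenchymal markers, Col3a1, and 1 of 4 smooth muscle markers, Myh11, beside 1.16%. The part of the cell type markers in the differences of the S phase genes was not tested.

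**Figure D5:**
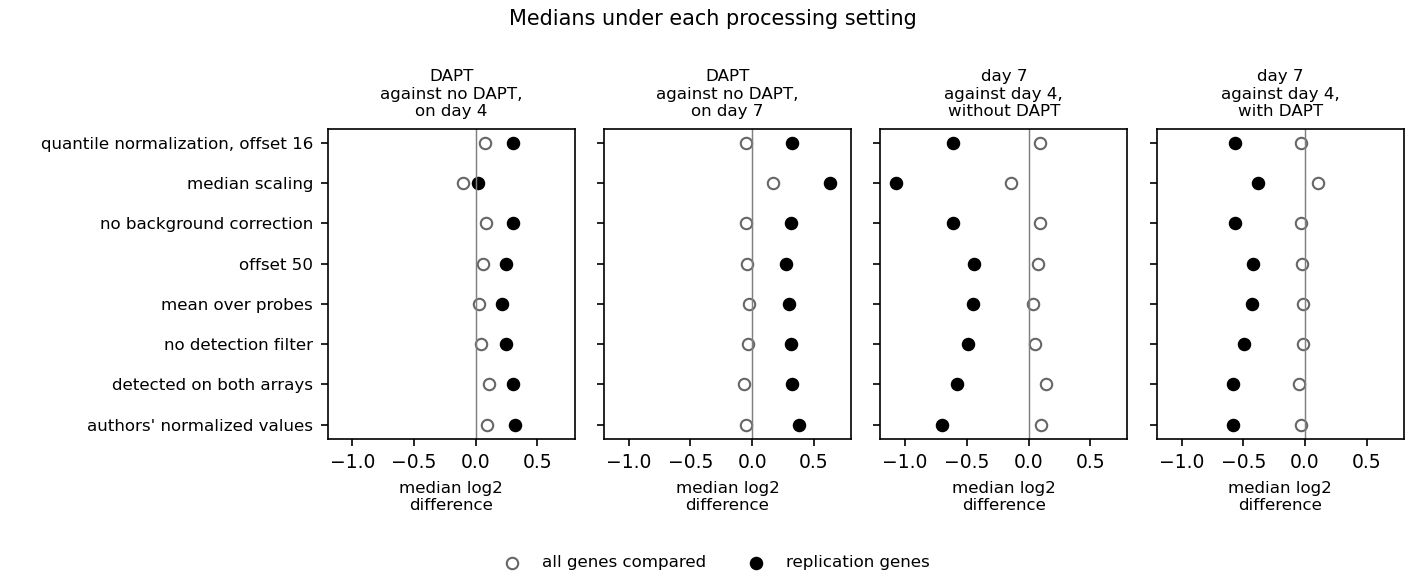
Median log2 difference of the S phase genes and of all genes compared, in the 4 comparisons, under each processing setting. The S phase genes stand below all genes in both comparisons of days and above them in both comparisons of DAPT in each of the 8 settings.

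The direction of the S phase genes relative to all genes was the same under each of the 8 processing settings, as the plot of medians by setting shows, while its size depended on the setting. Under median scaling, for example, the median of all genes between days without DAPT moved from 0.09 to -0.14, and that of the S phase genes relative to it from -0.71 to -0.93. For 7 S phase genes another detected probe was available, 11 probes in all. Of these 11, 10 had the sign of the chosen probe between days without DAPT, 8 between days with DAPT, 7 with DAPT on day 4 and 10 with DAPT on day 7. The median of the 11 was -0.82 and -0.50 between days without and with DAPT, and 0.20 with DAPT on day 7. With DAPT on day 4 it was -0.18, so there the other probes did not show the higher values of the chosen ones.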

How the data were processed

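RNA of 4 samples, 1 per group, was profiled on Illumina bead arrays. The deposited table of non-normalized values gives a linear intensity per probe and a detection p-value beside it, per the file headers. The submitters' processing notes name BeadStudio, without a version in the sources used here. Between 5177 and 5847 probes per array lay below 0, so background had already been subtracted. The authors' normalized intensity, made by a method that the sources used here do not give, is deposited as a further table. It served as an alternative, raised to a floor of 16.

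In R 4.3.3, neqc of limma 3.58.1 was applied to the non-normalized values: negative controls were inferred from the detection p, background was corrected, an offset of 16 was added, the 4 arrays were normalized by quantiles and log2 was taken. Of 25697 probes, 23978 had 1 gene symbol in the platform annotation and 1719 are unnamed here. A gene was represented by its probe of highest mean log2 value, which for 1 S phase gene (Rrm2) differs from the choice by raw intensity. It entered a comparison if detected at p under 0.01 on at least 1 of the 2 arrays. Where the dimmer array did not detect it, the fold is a lower bound against the higher of that array's lowest detected signal and the probe's own signal. Genes were counted at 2-fold and 1.5-fold. The test was limma's lmFit and eBayes with day and DAPT as additive terms, Benjamini-Hochberg adjustment over all 10359 genes and a threshold of 0.05. The number of arrays limits the precision. Both steps were tested on simulated data. Python 3.11.15 with numpy 2.4.6 and pandas 2.3.3 gave the counts, and matplotlib 3.10.9 the figures.

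The S phase genes, the other lists and the tests were chosen with earlier results of these data known, so no list is independent evidence of its own direction. Values on all 4 arrays were given for S phase genes at least 2-fold different with DAPT or in both comparisons of days, and for those with the largest and smallest difference between days without DAPT in each role group; Mcm2, Mcm6, Tyms and Dut were added after their values were seen. From each list of other genes, at most 4 genes with the largest such difference, detected on all arrays, were named; other names were added after their values were seen. Alternatives changed the normalization, background, offset, probe choice, detection filter, source of values, model terms and arrays. Promoters came from RefSeq, build GRCm38.p6; no coordinates are printed for probes, since no source used here gives the build of the array.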

Additional observations from a re-analysis of the deposited data

Results flagged for a closer look

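For 2 genes the arrays with DAPT stood on opposite sides of those without it on the 2 days, with the day 7 and day 4 differences more than 2-fold apart. The share of all genes that did so was not counted, so these 2 are not read as a trait of the S phase genes. In Mcm2, the helicase subunit, the difference with DAPT was -0.73 on day 4 and 0.37 on day 7, so that the day 7 difference exceeded that of day 4 by 1.10 on the log2 scale. In Tyms, the thymidylate synthase, it was -0.38 on day 4 and 0.91 on day 7, a gap of 1.29. Another Tyms probe detected on all arrays gave -0.18 and 0.35. With 1 array per group, the difference between the days was not tested in either gene.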

How the results depend on the processing

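The S phase genes' medians relative to all genes kept their sign in each of 8 settings. With median scaling their median differences were 0.0155 and 0.63 with DAPT on day 4 and day 7, and -1.08 and -0.38 between days without and with DAPT; on day 4, 1 gene was lower with DAPT by 2-fold or more, on day 7, 5 were higher, and between days 17 and 0 were lower without and with DAPT. Median scaling moved all genes to 1.79% higher and 6.78% lower with DAPT on day 4, 3.59% and 0.165% on day 7, 3.19% and 12.3% between days without DAPT, and 4.24% and 1.25% with DAPT. An offset of 50 gave medians of -0.44 and -0.42 between days without and with DAPT, with 1 gene at least 2-fold lower with DAPT, beside 0.882% of all genes. The mean over probes, which also takes in probes detected on no array, gave -0.45 and -0.43. It gave 5 lower without DAPT, beside 5.94% of all genes, and 0 higher by 2-fold with DAPT on day 7, beside 1.29%. For Uhrf1, for example, it averages the chosen probe with one detected on no array, at 4.16 to 4.20. No detection filter gave -0.49 between days without DAPT. The authors' normalized values gave 1 higher and 1 lower with DAPT on day 4, beside 7.31% and 4.36%. The lowest and the highest detected probe of each gene, an alternative chosen after seeing the data, gave -0.80 and -0.44 between days without DAPT.

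In the additive test of day, 0 S phase genes passed with median scaling, an offset of 50, the authors' values, the mean over probes, no filter or the DAPT term left out, and between 0 and 2 passed with that term and 1 array left out, where a lone array of a day is taken to vary like the pair of the other day. Over all genes the count of 190 became 0, 82, 149, 40, 0 and 1 under these settings, in the same order, and ranged from 1 to 263 with 1 array left out. For DAPT the count of 12 over all genes became 0 with median scaling, the mean over probes, no filter or the day term left out, 2 with the authors' values and 1 with an offset of 50, and was 0 with 1 array left out. Without the day term, the DAPT effect of Mcm5 reversed to -0.11 and -0.40 without the array of DAPT on day 4 and of no DAPT on day 7, and that of Rrm2 to -0.43 and -0.65. With both terms and the mean over probes, that of Rrm2 was -0.025. The cause was not tested. In 185 other cases a gene's effect kept its direction and its side of the threshold, a count stayed within 1.5 times its value, or a median kept its sign and moved by less than 0.1. Many of the 185 were counts of 0 that stayed at 0, so their number is no measure of stability. In 30 cases a count or median moved, in 9 an effect lost its call, in 5 it reversed and in 1 it gained a call. No paired analysis was possible because each group holds 1 array and the labels give no shared replicate numbers. Signal over background limits Mcm3, Prim1 and Ccne2, which were not detected on 1 or 2 arrays.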
